A study of Homo sapiens with 30 samples.

Results

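Wild-type mTOR was expressed in LNCaP prostate cancer cells in which mTOR had been knocked down, and the cells were compared with knockdown controls in the absence of androgen. LNCaP is an established human line whose growth depends on androgen. Every line carried a short hairpin RNA against mTOR, and the rescue construct was inducible, per the labels. The 2 groups compared were rescue with wild-type mTOR (WT) and rescue with an empty vector (EV), both under ethanol vehicle (0.1%). They hold 3 libraries each, 6 of the 30 in the series, and were chosen by their labels. All cells were first kept without androgen for 48 h, in medium whose serum (2%) had been stripped with charcoal. They then received vehicle, or the synthetic androgen R1881 at 10 nM, for 24 h. The other rescue groups, used here for comparison, expressed mTOR tagged with an export signal that takes it out of the nucleus (NES), mTOR tagged with a localization signal that takes it into the nucleus (NLS), or the NLS form made kinase-dead by D2357E (NLSKD). No library without the hairpin was analysed here, so EV is a knockdown and not an unmodified LNCaP line. The labels do not say whether the libraries of a group came from separate cultures or whether a line was a single clone, so the p-values measure the spread between these libraries, which may be technical.

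mTOR is a protein kinase that forms the catalytic core of 2 complexes. Complex 1, with RPTOR, is switched on at the lysosome by amino acids and growth factors and promotes protein, nucleotide and lipid synthesis and glycolysis. Complex 2, with RICTOR, phosphorylates AKT. In prostate cancer cells the pathway acts beside androgen signalling, which drives genes such as KLK2, KLK3 and TMPRSS2, and a nuclear pool of mTOR has been described.

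The libraries held 24.5 to 25.3 M counts in EV and 24.6 to 26.5 M in WT. Mitochondrially encoded genes took 4.31% to 9.30% of the counts in EV and 5.65% to 8.57% in WT. On the first principal component of the 6 libraries (45.2% of the variance) EV lay between -75.8 and -39.5 and WT between 45.0 and 57.2. EV replicate 2 stood apart from the other EV libraries: pairs of EV libraries differed by a chi-square per degree of freedom of 118 and 132 with it and 54.7 without it, against 24.0 to 31.3 within WT. All 18 luminal prostate markers were detected, with summed levels of 7593 to 8508 CPM (read counts scaled to a common library size, after TMM) in EV and 6536 to 6912 in WT. Of the defining basal markers KRT5, KRT15, KRT17 and TP63 were at 0 in all 6 libraries, and KRT14 had 18 counts over the EV libraries and 0 over the WT libraries. Also at 0 were 8 of 24 neuroendocrine markers, 4 of 17 mesenchymal ones (CDH2, COL1A2, DCN and THY1) and 3 of 12 blood and endothelial ones.

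MTOR (ENSG00000198793, hg38 chromosome 1, 11106535 to 11262507) checked the labels. Its level was 27.1, 20.3 and 29.8 CPM in the EV libraries and 2004, 1995 and 1521 CPM in the WT libraries. Every WT library lay far above every EV library, and the log2 fold change was 6.16 ± 0.41 (standard error throughout for fold changes; adjusted p = 2.75e-10, from edgeR's quasi-likelihood test with Benjamini-Hochberg adjustment, as are all adjusted p values here). A gene count cannot separate reads of the construct from those of the cells' own MTOR.

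Of 18296 genes tested, 1228 (6.71%) passed an adjusted p of 0.05: 421 were higher in WT (2.3%) and 807 lower (4.41%). When 1 library was left out, 261 to 353 were called higher and 552 to 698 lower, the fewest higher without EV replicate 2 (261) or WT replicate 1 (277). At an unadjusted p under 0.05 there were 3154. The lower side was the larger among strong fitted differences too: of 469 genes past a log2 fold change of 2 in either direction, 114 were higher and 355 lower, and past 4 these were 37 and 142. These counts include genes with few or no counts in 1 group, whose fitted fold changes are poorly fixed. Of 799 called genes with at least 5 CPM in the higher group, at any fold change, 305 were higher and 494 lower. Among called genes 1003 were protein-coding (318 higher, 685 lower). The 2 groups' libraries did not overlap for 1219 of the 1228 called genes, where 23.4% of all tested genes had groups that did not overlap. The median log2 fold change of all tested genes was -0.0075. In bulk RNA, fewer cells that express a gene and less of its RNA per cell cannot be told apart.

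**Figure D1:**
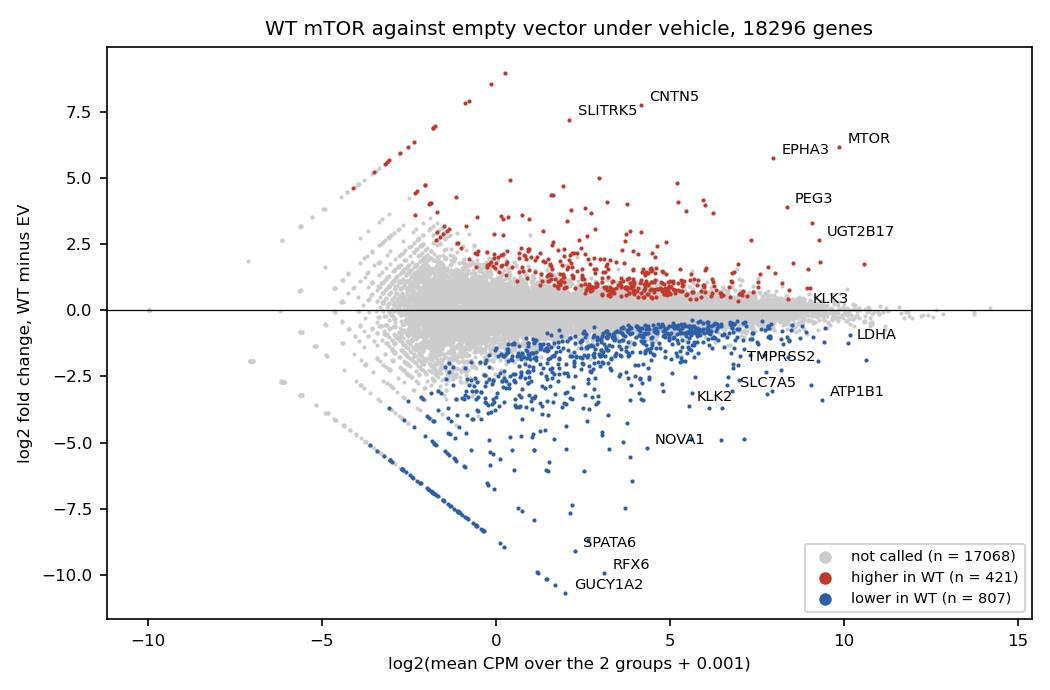
Log2 fold change of WT minus EV under vehicle against the log2 mean level, each point 1 of 18296 genes, with called genes in red (421 higher) and blue (807 lower). The straight lower edge on the left is made of genes with no count in 1 group, whose fitted fold change is no bound. Named examples include MTOR at 6.16 and KLK3 at 0.10.

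Genes of the machinery that mTOR belongs to and controls were seldom called. Of 12 genes of the mTOR complexes, MTOR alone was called. RPTOR had a log2 fold change of -0.05 ± 0.18 (adjusted p = 0.946) and RICTOR of 0.09 ± 0.33 (adjusted p = 0.942). Of 33 upstream regulators, RRAGA, which encodes a Rag GTPase that brings complex 1 to the lysosome, was called (-0.42 ± 0.13, adjusted p = 0.0494), and that call was lost in all 6 analyses that left out 1 of the 6 libraries. None of 45 translation factors, 47 ribosome biogenesis genes, 43 genes of G1/S and DNA replication, 38 of G2/M and mitosis, 26 of the unfolded protein response, 23 of the TCA cycle or 13 mitochondrially encoded genes was called. Their median log2 fold changes were -0.01, 0.02, 0.19, -0.08, -0.0002, -0.02 and -0.16 in that order. Fold changes were above 0 in 33 of the 43 G1/S genes and in 18 of 82 ribosomal protein genes (median -0.18). Of 82 ribosomal protein genes RPL10L, a retrocopy, was called (-1.99 ± 0.34), of 25 cholesterol genes LSS, which makes lanosterol (-0.66 ± 0.20), and of 18 fatty acid genes ACSL1, an acyl-CoA synthetase (-1.06 ± 0.30), all lower. When 1 library was left out, LSS kept its call only without EV replicate 3 and ACSL1 only without EV replicate 2. Of 46 lysosome and autophagy genes CTSL, a lysosomal protease (-0.85 ± 0.21), and GABARAPL1, an autophagosome protein (-0.69 ± 0.17), were lower, and neither call was made without EV replicate 2 or without WT replicate 1. Each of these shares was below or near the 6.71% of all genes.

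Few amino acid genes were called, and those went in both directions. SLC7A5 (ENSG00000103257, chromosome 16, 87830023 to 87869488) encodes LAT1, the leucine importer that feeds complex 1. Its level was 191, 222 and 176 CPM in EV and 24.2, 23.3 and 22.6 CPM in WT. All WT libraries were low and close to each other, and the fold change was -3.07 ± 0.30 (adjusted p = 6.19e-08). SLC38A9, the lysosomal arginine sensor of complex 1, went the other way, from 28.5, 23.4 and 31.9 CPM to 55.8, 50.8 and 52.1 CPM (0.92 ± 0.16, adjusted p = 3.83e-04). The groups did not overlap. SLC7A8, which encodes LAT2, another neutral amino acid carrier, was also higher (0.89 ± 0.17, adjusted p = 0.0012). These 3 were the called members of 25 amino acid transporters (12% called, beside 6.71% of all genes, median 0.11). Among 37 targets of ATF4, the transcription factor of amino acid stress, BCAT1, which transaminates branched-chain amino acids (2.59 ± 0.39), and CTH, which makes cysteine (0.79 ± 0.16), were higher. SLC7A5, which is on both lists, and GDF15, a secreted stress factor (-1.16 ± 0.32), were lower. Of the 37, 10.8% were called, and their median was -0.21. Without EV replicate 2, or without WT replicate 1, 2 or 3, GDF15 was not called.

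**Figure D2:**
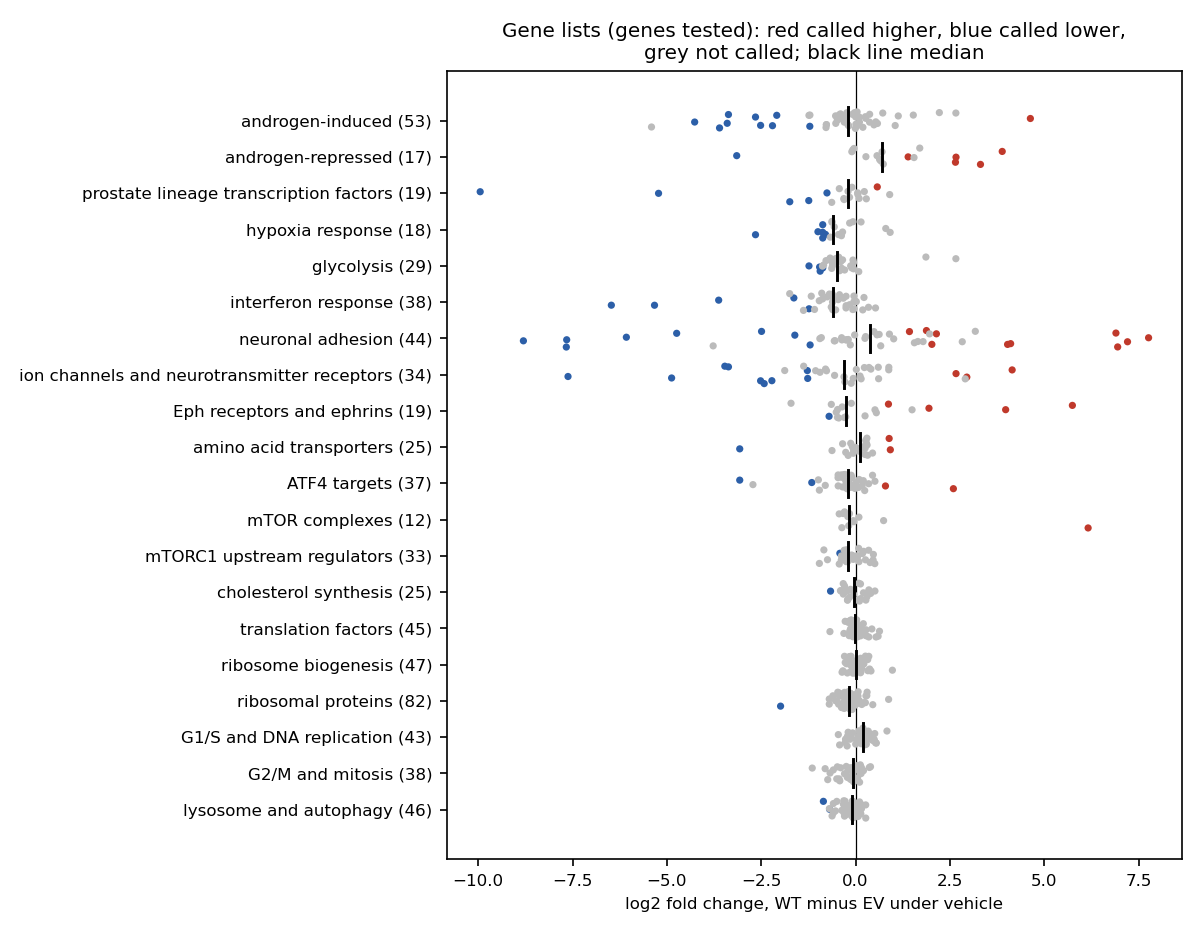
Log2 fold change of WT minus EV under vehicle (horizontal axis) for the tested members of a selection of gene lists, 1 point per gene, with list sizes in parentheses. Medians are -0.01 for translation factors, 0.02 for ribosome biogenesis, -0.18 for ribosomal proteins, 0.19 for G1/S and -0.08 for G2/M. Hypoxia, glycolysis and interferon genes have medians of -0.60, -0.51 and -0.59.

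Androgen-regulated genes were among those called, in cells given no androgen. Of 53 tested androgen-induced genes, 9 were lower in WT and 1 higher (18.9% called, beside 6.71% of all genes, median -0.20). KLK2 (ENSG00000167751, chromosome 19, 50861568 to 50880567), a kallikrein protease of the prostate, had 78.2, 119 and 59.9 CPM in EV and 7.38, 7.33 and 6.44 CPM in WT. The groups were far apart, and the fold change was -3.60 ± 0.27 (adjusted p = 6.74e-10). Its neighbour KLK3 (ENSG00000142515, chromosome 19, 50854915 to 50860764), which encodes prostate-specific antigen, had 453, 670 and 227 CPM in EV and 417, 589 and 442 CPM in WT. Those groups overlapped, and the fold change was 0.10 ± 0.31 (adjusted p = 0.923). The 2 genes are close copies, and how reads that match several places were counted is not given in the sources used here, so their counts are uncertain.

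The promoters of KLK2 and KLK3 are shown because the copies are alike in sequence while KLK2 was called lower and KLK3 was not called. They span 250 bases before to 50 after the RefSeq start (GRCh38.p14), KLK2 at chr19:50873189-50873488 and KLK3 at chr19:50854665-50854964, both on the plus strand. Capitals mark AGAACA, the hexamer of the androgen response element, or TGTTCT on the other strand. In a global alignment 245 of the 300 KLK2 bases (81.7%) were identical in KLK3. KLK3 held 1 exact match, 170 bases before the start, and KLK2 none, while 14.8% of 35116 RefSeq promoters of this length held at least 1. Where KLK3 reads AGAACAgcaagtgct, KLK2 reads ggaacagcaagtgct, a near match that the exact search does not mark. The search therefore cannot tell whether KLK2 lacks an androgen response element here. The enhancers that are known to drive these genes lie outside this window.
KLK2: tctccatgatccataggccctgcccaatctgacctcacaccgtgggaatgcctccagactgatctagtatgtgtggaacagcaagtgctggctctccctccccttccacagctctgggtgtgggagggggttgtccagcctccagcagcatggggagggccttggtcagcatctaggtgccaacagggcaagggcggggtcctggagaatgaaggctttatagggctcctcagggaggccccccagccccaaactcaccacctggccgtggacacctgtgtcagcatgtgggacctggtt
KLK3: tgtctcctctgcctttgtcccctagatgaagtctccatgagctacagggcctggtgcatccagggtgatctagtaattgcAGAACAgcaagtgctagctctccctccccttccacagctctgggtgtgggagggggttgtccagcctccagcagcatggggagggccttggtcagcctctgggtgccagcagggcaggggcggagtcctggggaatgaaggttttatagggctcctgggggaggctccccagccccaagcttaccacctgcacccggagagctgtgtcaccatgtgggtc

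TMPRSS2, a surface protease and the androgen-driven partner in prostate cancer gene fusions, had 206, 245 and 160 CPM in EV and 46.4, 61.2 and 35.9 CPM in WT. The groups did not overlap (-2.09 ± 0.20, adjusted p = 6.49e-08). PLA2G2A, a secreted phospholipase, had 20.3, 36.9 and 20.1 CPM against 1.59, 1.60 and 0.824 CPM (-4.26 ± 0.38). It is on the androgen-induced list, but R1881 lowered it in each of the NES, NLS and NLSKD lines. ALDH1A3, a retinoic acid-making enzyme, was lower by -3.40 ± 0.24 and KCNN2, a calcium-activated potassium channel, by -2.52 ± 0.18. The remaining called members, named because the count is small, were TRPM8, a cation channel (-3.37 ± 0.43), NDRG1, a stress-response gene (-2.65 ± 0.34), TSC22D3, a steroid-induced leucine zipper protein (-2.20 ± 0.24), and ADAMTS1, a metalloprotease (-1.21 ± 0.20), all lower. The member called higher, ORM2, had 0 counts in EV and 9 in WT, near the detection floor, is given no fold, and was called in 1 of the 6 analyses that left out 1 library, that without WT replicate 2. FKBP5, a chaperone of steroid receptors that androgen induces, had 45.5, 29.8 and 40.6 CPM in EV and 64.3, 63.3 and 63.4 CPM in WT. Its groups did not overlap, and the difference missed the threshold (0.72 ± 0.23, adjusted p = 0.0601).

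Of 17 tested androgen-repressed genes 5 were higher and 1 lower (35.3% called, beside 6.71% of all genes, median 0.70). UGT2B15 and UGT2B17, near-identical enzymes that conjugate androgens for excretion, were both higher. UGT2B17 had 236, 116 and 160 CPM in EV and 1061, 1137 and 1005 CPM in WT (2.65 ± 0.28, adjusted p = 1.82e-07). UGT2B15 had 133, 61.9 and 102 CPM in EV and 1212, 903 and 827 CPM in WT (3.31 ± 0.50, adjusted p = 5.26e-05). In both genes EV replicate 2 was the lowest of all libraries and no WT library came near EV, although counts of these copies may be shared between them. PEG3, an imprinted zinc-finger gene, rose from 42.7, 35.6 and 46.6 CPM to 470, 639 and 737 CPM (3.88 ± 0.39). OPRK1, the kappa opioid receptor (2.66 ± 0.32), and DDC, which decarboxylates aromatic amino acids (1.39 ± 0.23), were higher too. CAMK2N1, an inhibitor of CaM kinase II, went against its list, from 370, 404 and 428 CPM to 49.98, 45.5 and 39.9 CPM (-3.15 ± 0.26). A second set was taken from other libraries: 359 genes raised by R1881 in each of NES, NLS and NLSKD. Of these 20 were higher and 50 lower in WT than in EV (19.5% called, median -0.11). Of 199 genes lowered by R1881 in those lines 24 were higher and 30 lower (27.1% called, median -0.02). Of all genes 2.3% were higher and 4.41% lower.

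**Figure D3:**
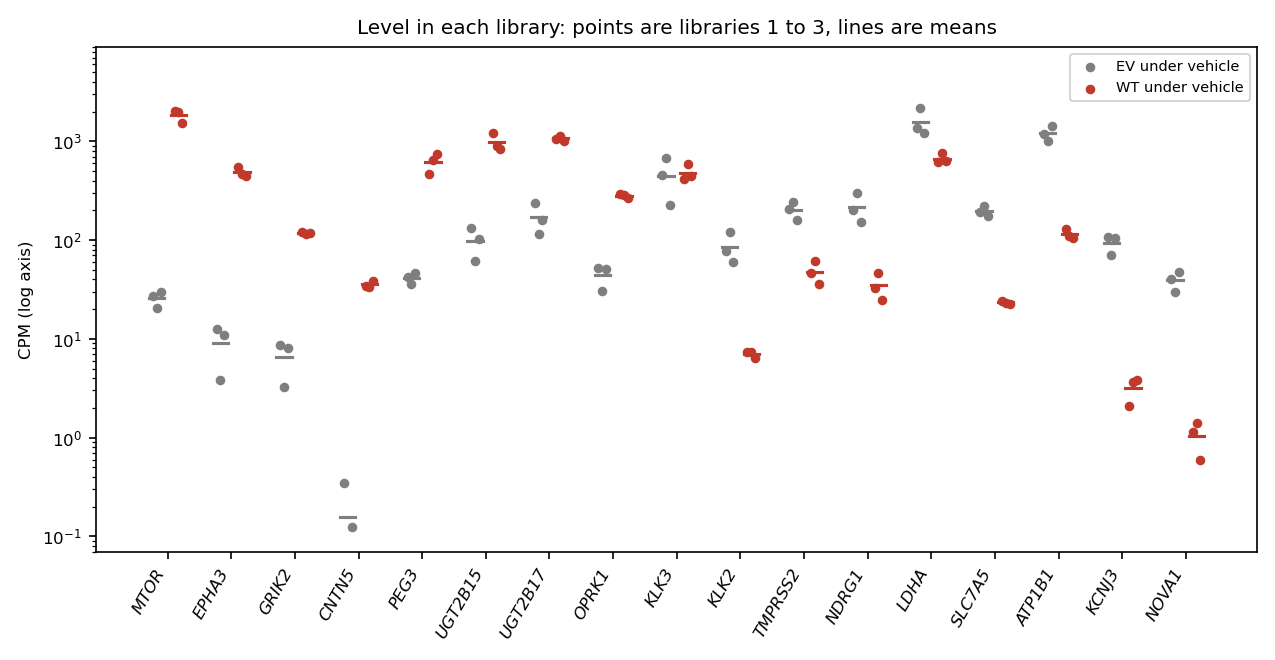
CPM on a log axis in each EV (grey) and WT (red) library under vehicle for selected genes, with a line at each group's mean. Of the genes drawn, the groups overlap for KLK3 alone. CNTN5 had no count in EV replicate 2, which is not drawn, so its EV column shows 2 points.

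The hypoxia and glycolysis genes that were called were all lower. Of 18 tested hypoxia-response genes 6 were lower and none higher (33.3% called, median -0.60), and of 29 glycolysis genes 5 were lower and none higher (17.2%, median -0.51). Of all genes 6.71% were called. NDRG1, which belongs to both the androgen and hypoxia lists, had 203, 300 and 151 CPM in EV and 32.4, 46.9 and 24.8 CPM in WT (adjusted p = 4.81e-06). LDHA (ENSG00000134333, chromosome 11, 18394388 to 18408425), the lactate-making dehydrogenase, had 1350, 2155 and 1203 CPM in EV and 616, 754 and 630 CPM in WT. The groups did not overlap (-1.24 ± 0.26, adjusted p = 0.00296), and EV replicate 2 was the highest. PKM, pyruvate kinase, had 1405, 2156 and 1043 CPM against 707, 939 and 755 CPM (-0.94 ± 0.22, adjusted p = 0.00714). PGK1, phosphoglycerate kinase, was lower by -0.68 ± 0.20 and ALDOA, an aldolase, by -0.95 ± 0.25, and the fifth was PFKFB4, which sets fructose bisphosphate levels and is on both lists (-0.87 ± 0.26). Among hypoxia genes BNIP3 (-0.998 ± 0.205) and BNIP3L (-0.80 ± 0.23), receptors for removal of mitochondria, EGLN3, an oxygen-sensing hydroxylase (-0.87 ± 0.18), and EPAS1, which encodes HIF-2 alpha (-0.87 ± 0.25), were lower. GAPDH just missed the threshold (-0.61 ± 0.19, adjusted p = 0.0529), and VEGFA had -0.38 ± 0.16 (adjusted p = 0.196). These counts moved when 1 library was left out. For glycolysis there was 1 call without EV replicate 2 or WT replicate 1, 3 without WT replicate 2 or 3, and 9 without EV replicate 3. For hypoxia there were 3 without EV replicate 2 or any 1 WT replicate. BNIP3L lost its call in all 6 such analyses, PGK1, PFKFB4 and EPAS1 in 5, and PKM and ALDOA without EV replicate 2 or WT replicate 1, while LDHA, NDRG1, BNIP3 and EGLN3 kept theirs.

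Promoters of 3 of these genes, all called lower, are shown. They were picked because they hold ACGTG, 1 form of the core letters that HIF, the hypoxia-inducible factor, binds. That they hold it is therefore no result. Capitals mark ACGTG, or CACGT on the other strand. Other forms of the core were not searched. ACGTG was found in 21.4% of 35116 RefSeq promoters. LDHA (chr11:18394313-18394612, plus strand) held 5 matches, of which 2 pairs overlap because CACGTG reads the same on both strands. PGK1 (chrX:78103998-78104297, plus) held 3 and BNIP3 (chr10:131981874-131982173, minus) held 2 that overlap. ALDOA held 1 match, and PKM, EGLN3, PFKFB4 and EPAS1 held no ACGTG in this window, which does not show that they lack other forms of the core. The promoters of NDRG1 and BNIP3L were not searched. A match is a description of letters and not a measured site. HIF binding was not measured here.
LDHA: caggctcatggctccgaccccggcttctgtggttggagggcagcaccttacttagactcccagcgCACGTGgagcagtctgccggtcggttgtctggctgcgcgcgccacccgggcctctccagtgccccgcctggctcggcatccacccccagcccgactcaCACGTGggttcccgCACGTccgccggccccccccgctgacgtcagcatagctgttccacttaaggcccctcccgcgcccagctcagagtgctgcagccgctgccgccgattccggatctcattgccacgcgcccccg
PGK1: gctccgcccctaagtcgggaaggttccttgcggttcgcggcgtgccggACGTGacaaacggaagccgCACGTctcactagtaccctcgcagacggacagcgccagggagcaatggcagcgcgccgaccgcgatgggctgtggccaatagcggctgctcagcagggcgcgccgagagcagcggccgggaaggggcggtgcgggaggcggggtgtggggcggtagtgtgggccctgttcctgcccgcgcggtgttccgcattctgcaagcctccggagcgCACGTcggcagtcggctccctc
BNIP3: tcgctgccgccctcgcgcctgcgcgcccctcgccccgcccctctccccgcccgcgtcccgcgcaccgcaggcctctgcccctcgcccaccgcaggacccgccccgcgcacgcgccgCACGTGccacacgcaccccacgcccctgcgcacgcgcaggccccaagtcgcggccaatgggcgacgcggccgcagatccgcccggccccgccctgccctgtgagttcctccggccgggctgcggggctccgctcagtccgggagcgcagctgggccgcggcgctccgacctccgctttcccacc

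The called interferon-response genes were also all lower. Of 38 tested, 5 were lower and none higher (13.2% called, beside 6.71% of all genes), and 33 of 38 had a negative fold change (median -0.59). IFITM2, which encodes a membrane protein that restricts virus entry, had 19.0, 42.9 and 27.9 CPM in EV and 0.369, 0.0390 and 0.589 CPM in WT. It was close to absent in every WT library (-6.47 ± 0.62, adjusted p = 4.87e-08). Its close relatives IFITM3 (-1.64 ± 0.36) and IFITM1 were lower as well. IFITM1 had 53 counts in EV and 1 in WT, a ratio of 55.1 (exact 95% counting interval 9.47 to 2218, which like all such intervals here covers counting error only). Reads may be shared among the 3. OASL, an antiviral effector (-3.63 ± 0.77), and IFIT2, which blocks translation of viral RNA (-1.23 ± 0.30), completed the 5. Without WT replicate 1 or without WT replicate 3 the count was 3, without IFIT2 and IFITM1, and IFITM1 was also not called without EV replicate 2 or WT replicate 2.

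Genes of neuronal adhesion and signalling included strong differences in both directions. Of 44 tested neuronal adhesion genes 10 were higher and 8 lower (40.9% called, beside 6.71% of all genes). Their median was 0.38, or 0.26 with the 5 genes at 0 in a group set to their bounds. CNTN5 (ENSG00000149972, chromosome 11, 99020953 to 100358885), a contactin of the axon surface, had 0.346, 0 and 0.123 CPM in EV and 34.6, 33.3 and 38.7 CPM in WT. It went from near the detection floor to a clear level in every WT library (7.76 ± 0.94, adjusted p = 2.38e-06). SLITRK5 and SLITRK6, transmembrane proteins that shape neurites and synapses, were both higher. SLITRK5 had 4 counts in EV and 665 in WT (7.21 ± 0.61), and SLITRK6 had 5.27, 2.45 and 4.68 CPM against 94.6, 59.8 and 59.8 CPM (4.11 ± 0.58). PCDH7, a protocadherin, was higher by 4.03 ± 0.35. Lower members were CNTNAP4, with 658 counts in EV and 3 in WT (ratio 228, interval 77.7 to 1109), TENM1, a teneurin with 161 counts in EV and 0 in WT (at least 45.1-fold lower, taking 3 counts in the whole group as the floor), and CLSTN2, a calsyntenin of synapses (-6.07 ± 0.84). NCAM2, an adhesion molecule with a high level here, went from 1056, 763 and 1059 CPM to 431, 429 and 389 CPM (-1.21 ± 0.25).

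Some receptors of the Eph family, which read contact with ephrins on neighbouring cells, were called. Of 19 tested Eph receptors and ephrins 4 were higher and 1 lower (26.3% called, beside 6.71% of all genes), all receptors, and the median of the 19 was -0.26. EPHA3 (ENSG00000044524, chromosome 3, 89107524 to 89482134) had 12.6, 3.82 and 10.95 CPM in EV and 553, 466 and 448.5 CPM in WT. No WT library was anywhere near EV (5.74 ± 0.56, adjusted p = 5.80e-08). EPHA7 had 11.8, 2.37 and 8.94 CPM against 157, 102 and 106 CPM (3.98 ± 0.59), EPHA2 was higher by 1.94 ± 0.24 and EPHB4 by 0.87 ± 0.21. EPHA1 was lower (-0.70 ± 0.21, adjusted p = 0.041), a call kept in 1 of the 6 analyses that left out 1 library (without EV replicate 3), and EPHB4 was not called without EV replicate 3 or WT replicate 2. Of 31 axon guidance genes 3 were lower and none higher (9.68% called, near the 6.71% of all genes, median -0.18). They were UNC5C, a netrin receptor (-2.45 ± 0.66), NRP1, a semaphorin and VEGF co-receptor (-1.13 ± 0.22), and SEMA3F, a secreted semaphorin (-0.98 ± 0.19). UNC5C was not called without EV replicate 2 or 3 or WT replicate 1 or 2.

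Of 34 ion channels and neurotransmitter receptors 3 were higher and 9 lower (35.3% called, beside 6.71% of all genes, median -0.30). GRIK2, a kainate glutamate receptor subunit, had 8.62, 3.22 and 8.001 CPM in EV and 120, 115 and 117 CPM in WT (4.15 ± 0.39, adjusted p = 3.43e-08). KCNJ3, a G protein-gated potassium channel, moved the other way, from 108, 70.9 and 104 CPM to 2.10, 3.67 and 3.85 CPM (-4.88 ± 0.51, adjusted p = 2.24e-07). KCNH8, a voltage-gated potassium channel, was higher (2.95 ± 0.32), and its relative KCNH2 (-2.22 ± 0.39), KCNQ1 (-2.42 ± 0.35) and TRPV6, a calcium channel of the prostate epithelium (-1.28 ± 0.23), were lower.

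Markers of the luminal lineage moved in part. Of 18 tested luminal markers 5 were lower and 1 higher (33.3% called, median -0.49), and 3 were lower without EV replicate 2. Of 19 tested prostate transcription factors and lineage regulators 5 were lower and 1 higher (31.6% called, beside 6.71% of all genes, median -0.20). The higher one was SOX4 (0.57 ± 0.17), a call lost in all 6 analyses that left out 1 library. Among the 5 lower ones was RFX6, a factor of endocrine lineages with 1 count over the WT libraries, described below. ACPP, prostatic acid phosphatase, was lower by -1.01 ± 0.23 and ELF3, an epithelial ETS factor, by -1.24 ± 0.20. DPP4, a surface peptidase, was higher from a low level (0.192, 0.0402 and 0.369 CPM to 2.95, 2.30 and 1.84 CPM). KRT8 and KRT18, the keratins of luminal cells, overlapped between groups and were not called (-0.38 ± 0.30 and -0.55 ± 0.35). Another keratin on the luminal list, KRT19, was called lower (-2.04, adjusted p = 0.00525). Its mean was 3.91 CPM in EV and 0.95 CPM in WT, and it was not called without EV replicate 2. Sums of basal, neuroendocrine, and blood and endothelial markers did not overlap between the groups, while those of mesenchymal markers did. Basal markers had 38.01 to 72.01 CPM in EV and 99.3 to 124 CPM in WT, almost all of it from ITGA6 (1.11 ± 0.44, adjusted p = 0.164). Of the 6 basal markers tested, however, the 2 called were lower: ITGB4, an integrin of basal cells (-1.75 ± 0.41, not called without WT replicate 1 or 3), and KRT14, a basal keratin, whose call was lost in all 6 analyses that left out 1 library. Neuroendocrine markers had 180 to 252 CPM against 31.6 to 40.2 CPM, mostly from SYT4, a synaptotagmin (-4.92 ± 0.91), with CHGA and INSM1 at 0. Mesenchymal markers had 187 to 267 CPM against 246 to 325 CPM, mostly FN1, which was not called (0.27, adjusted p = 0.675). VIM was called higher (2.23 ± 0.28). Blood and endothelial markers had 10.1 to 13.3 CPM against 22.1 to 26.4 CPM, nearly all VWF (1.03 ± 0.19). The part of such markers in the other differences was not tested.

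The lowest fold changes came from genes that were present in EV and nearly without reads in WT. Among called genes, 11 had at least 5 CPM in EV and under 0.1 CPM in WT, and 1 the reverse. RFX6, a transcription factor of endocrine lineages, had 12.7, 14.6 and 24.8 CPM in EV and 1 count in the 3 WT libraries together (ratio 1351, interval 242 to 53400). GUCY1A2, a subunit of soluble guanylate cyclase, had 8.35, 6.31 and 9.27 CPM in EV and no count in WT (at least 165-fold lower). FAM110B was at least 131-fold lower and EYA2, a transcriptional coactivator of eye and muscle development, at least 88.8-fold. SPATA6, a gene of sperm formation, had 720 counts in EV and 1 in WT (ratio 749, interval 134 to 29610), and SPAG16, a protein of the sperm axoneme, had 934 and 2 (ratio 486, interval 134 to 4016). FRAS1, an extracellular matrix protein (-7.46 ± 0.60), BAG2, an HSP70 co-chaperone (-5.55 ± 0.51), and NOVA1, a neuronal splicing factor (-5.22 ± 0.36), kept some reads. ESRRG, an orphan nuclear receptor, had 419 counts in EV and 6 in WT (-6.08 ± 1.07).

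LACC1, which encodes a purine enzyme of macrophages, and its neighbour CCDC122 were both without reads in WT. LACC1 (ENSG00000179630, chromosome 13, 43879284 to 43893932, plus strand) had 6.39, 6.23 and 6.69 CPM in EV and CCDC122 (ENSG00000151773, 43823909 to 43879727, minus strand) 3.35, 4.14 and 6.15 CPM, and neither had a count in WT. These are at least 163-fold and at least 87.3-fold lower. Their annotated bodies overlap at the 5′ ends, so they share a start region and, without known strand counting, part of the reads there. The LACC1 promoter (RefSeq GRCh38.p14, chr13:43878928-43879227, plus strand) is shown because both genes start beside it. Capitals mark CG, which reads the same on both strands, and there are 21 here, against a median of 14 over all 35116 promoters (96.0% hold at least 1) and 37 in that of CCDC122. DNA methylation was not measured here.
LACC1: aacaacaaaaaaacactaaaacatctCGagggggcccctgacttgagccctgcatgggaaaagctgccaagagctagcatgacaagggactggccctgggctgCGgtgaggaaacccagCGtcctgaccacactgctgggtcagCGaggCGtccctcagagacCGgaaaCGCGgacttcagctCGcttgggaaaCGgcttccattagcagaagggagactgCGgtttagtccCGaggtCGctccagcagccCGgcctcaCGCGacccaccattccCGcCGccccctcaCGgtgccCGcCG

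On the higher side the protein-coding genes with the largest fold changes included LRRC7, a scaffold of synapses (4.99 ± 0.45), ADGRL2, an adhesion receptor for latrotoxin (4.81 ± 0.51), NR2F1, an orphan nuclear receptor (4.71 ± 0.60), KCND2, a potassium channel (4.35 ± 0.57), MBNL2, a splicing regulator (4.10 ± 0.48), and TSPAN12, a tetraspanin of Wnt receptor complexes (3.86 ± 0.43). The 10 called protein-coding genes with the largest differences in mean CPM were MTOR, MME, ADGRG6, ATP1B1, LDHA, UGT2B17, UGT2B15, PKM, AIDA and ASPH. MME, neprilysin, had 2932, 1749 and 2808 CPM in EV and 927, 606.5 and 508 CPM in WT (-1.88 ± 0.40, adjusted p = 0.00292). ATP1B1, the beta subunit of the sodium pump, fell from 1188, 1017 and 1417 CPM to 129.5, 109.5 and 106 CPM (-3.39 ± 0.23, adjusted p = 2.75e-10). ADGRG6, an adhesion receptor, went from 913, 427 and 793 CPM to 2678, 2272 and 2170 CPM (1.74 ± 0.41, adjusted p = 0.00747), and was not called without EV replicate 2. ASPH, an aspartate hydroxylase, was higher (1.83 ± 0.40) and AIDA, a regulator of JNK signalling, lower (-1.93 ± 0.28).

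Of 225 called genes that are not protein-coding, 103 were higher and 122 lower. NKAIN3-IT1 (4.34 ± 0.73), LPAL2, a pseudogene related to lipoprotein(a) (3.80 ± 0.48), AL162582.1 (3.06 ± 0.45) and PURPL, a long noncoding RNA tied to p53 (2.87 ± 0.30), were the highest at 5 CPM or more. The lowest were C8orf34-AS1 (-5.72 ± 0.94), AC060814.5 (-3.96 ± 0.73), COLCA1 (-2.84 ± 0.28) and FAM198B-AS1 (-2.41 ± 0.34). COLCA1 overlaps COLCA2 on the other strand and FAM198B-AS1 overlaps FAM198B. Their partners were lower as well (-3.33 ± 0.54 and -3.07 ± 0.42), and with no strand setting known the reads of each pair cannot be told apart.

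The comparison of WT with EV was repeated under R1881 on separate libraries. Of the 421 genes higher under vehicle 275 were also called higher there (65.3% of these and 41.1% of the 669 called higher under R1881). Of the 807 lower genes 535 were also lower (66.3%, and 60.5% of 884). No gene was called in opposite directions. The test of the difference between treatments called 8 genes (0.0437%), with 706 at an unadjusted p under 0.05. When 1 library was left out it called 1 to 8, the fewest without WT vehicle replicate 3 or EV R1881 replicate 1. KCNN2, which androgen induces, was further below EV under vehicle than under R1881. It was lower by -2.52 ± 0.18 under vehicle and -1.09 ± 0.17 under R1881 (difference 1.43 ± 0.24, adjusted p = 0.0142). EPHA3 was at 2.59 ± 0.66 CPM in EV and 320 ± 57.9 CPM in WT under R1881 (SD, n = 3 each).

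WT was also set against each other rescue line directly under vehicle, which does not use EV. Against NES 219 genes were called (1.2%; 79 higher and 140 lower in WT), against NLS 88 (0.481%; 16 and 72) and against NLSKD 157 (0.858%; 47 and 110). Leaving out 1 library gave 119 to 260, 33 to 84 and 98 to 127, the fewest without NES replicate 2, NLS replicate 2 and WT replicate 3. KLK2 was lower in WT than in NES (47.6 ± 6.35 CPM in NES; -2.75 ± 0.26, adjusted p = 1.98e-07). It did not pass against NLS (-0.76 ± 0.25, adjusted p = 0.221) or NLSKD (-0.36 ± 0.25, adjusted p = 0.93). EPHA3 (3.35 ± 0.50, adjusted p = 2.38e-04) and CNTN5 (5.46 ± 0.79, adjusted p = 1.81e-04) were higher in WT than in NES. MTOR RNA was itself lower in WT than in NES (-1.51 ± 0.33, adjusted p = 0.0151), beside which these differences stand, and its part in them was not tested.

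In 3 higher and 25 lower genes WT differed from all 3 other lines in the direction in which it differed from EV. These genes were picked by those differences, so their values are a description. NOVA1 was the clearest by adjusted p against EV: it had 40.1, 30 and 47.5 CPM in EV and 1.14, 1.404 and 0.589 CPM in WT, with means of 29.7 ± 11.0 CPM in NES, 9.07 ± 1.99 in NLS and 7.86 ± 2.23 in NLSKD. The direct differences were -4.82 ± 0.36, -3.11 ± 0.34 and -2.90 ± 0.34 (adjusted p at most 1.81e-05). CAMK2N1 (-2.12, -1.20 and -1.45), SPATA6 (-4.04, -6.75 and -6.69) and COX7B2, a testis form of a cytochrome oxidase subunit (-4.31, -4.64 and -4.25), were lower in WT than in NES, NLS and NLSKD. NOTCH3, a signalling receptor, and CLU, the chaperone clusterin, were lower by -1.82 ± 0.25 and -1.52 ± 0.25 against EV and also lower than in each other line. The 3 higher genes were SLC22A10, an organic anion transporter relative (3.75 ± 0.31 against EV), TMEFF2, a prostate transmembrane protein (0.87 ± 0.17), and AC117402.1, whose call against EV was lost without EV replicate 1 or 3 or WT replicate 1 or 3.

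**Figure D4:**
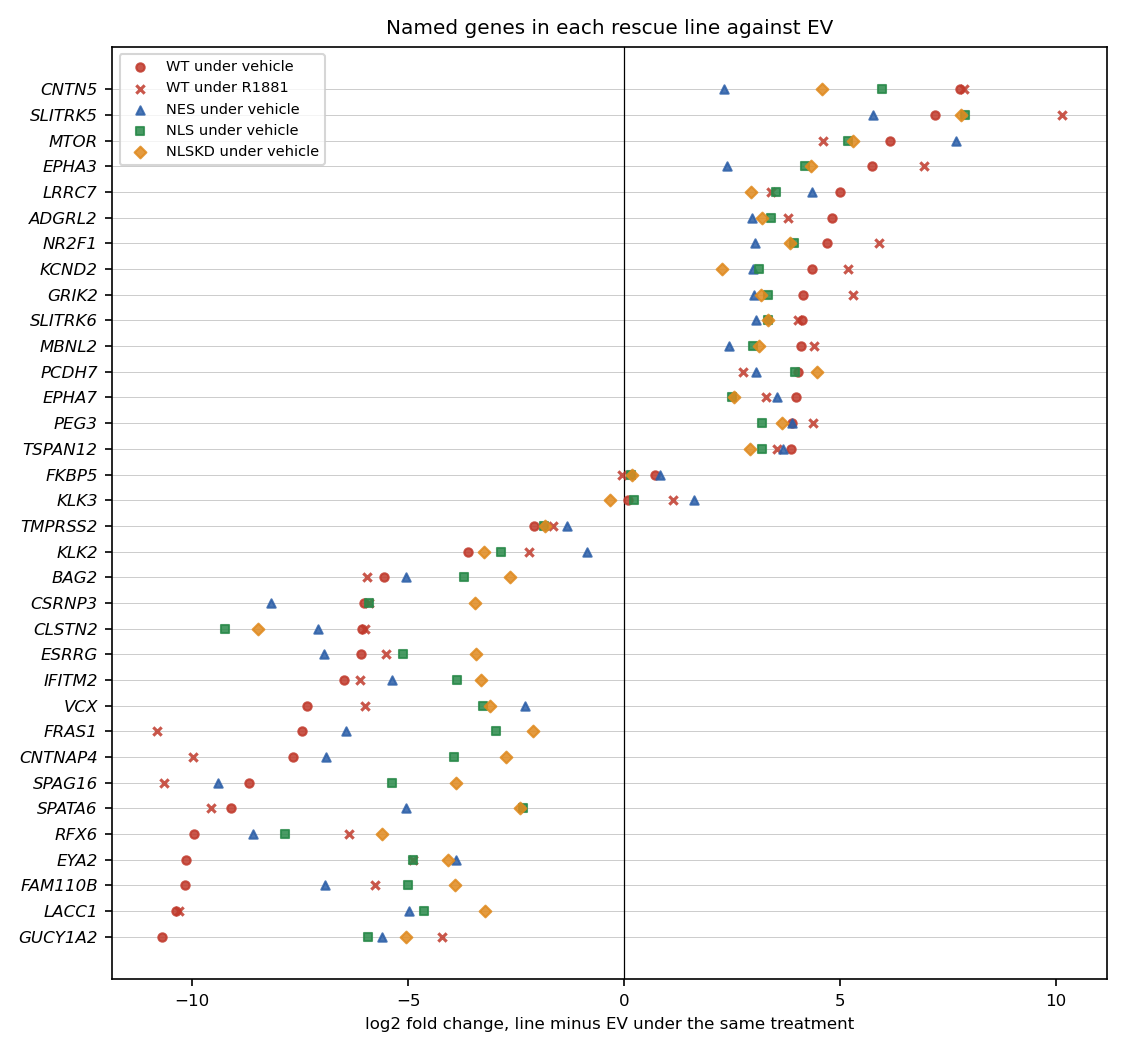
Log2 fold change against EV under the same treatment (horizontal axis) for named genes in WT under vehicle and R1881 and in NES, NLS and NLSKD under vehicle. The comparisons under vehicle share the 3 EV libraries, so their likeness is no independent support. Fitted values of genes with no counts in a group, such as GUCY1A2 and LACC1, are no bounds. KLK2 lies at -3.60 in WT and -0.85 in NES.

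The median gene of chromosomes 9, 15 and 21 was lower in WT. Among 11041 genes with at least 5 CPM over all libraries, the median log2 fold change was -0.36 on chromosome 9 (458 genes, 86.7% below 0), -0.28 on chromosome 15 (364 genes, 81.9%) and -0.30 on chromosome 21 (115 genes, 81.7%). On every other chromosome the median lay between -0.05 and 0.14, and 49.4% of all these genes were below 0. The shift ran along the whole of each: all 23 bins of 10 Mb with at least 10 genes had a median below 0, from -0.47 to -0.12. Called lower were 68 of 735 tested genes on chromosome 9, 68 of 620 on chromosome 15 and 23 of 216 on chromosome 21, with 10, 2 and 1 called higher. Each library's median level of a chromosome's genes relative to the 30 libraries was 0.12 to 0.20 in EV and -0.21 to -0.17 in WT for chromosome 9, on the log2 scale. For chromosome 15 it was 0.15 to 0.34 in EV and -0.08 to -0.03 in WT, and for chromosome 21 0.15 to 0.23 and -0.11 to -0.05. The groups did not overlap on any of the 3. Under R1881, in separate libraries, the medians of WT minus EV were -0.30, -0.29 and -0.24. On chromosomes 15 and 21 the libraries of NES, NLS and NLSKD under vehicle (-0.17 to 0.01 and -0.15 to 0.0005) were all below those of EV. On chromosome 9 their means were 0.12, -0.0007 and -0.06.

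**Figure D5:**
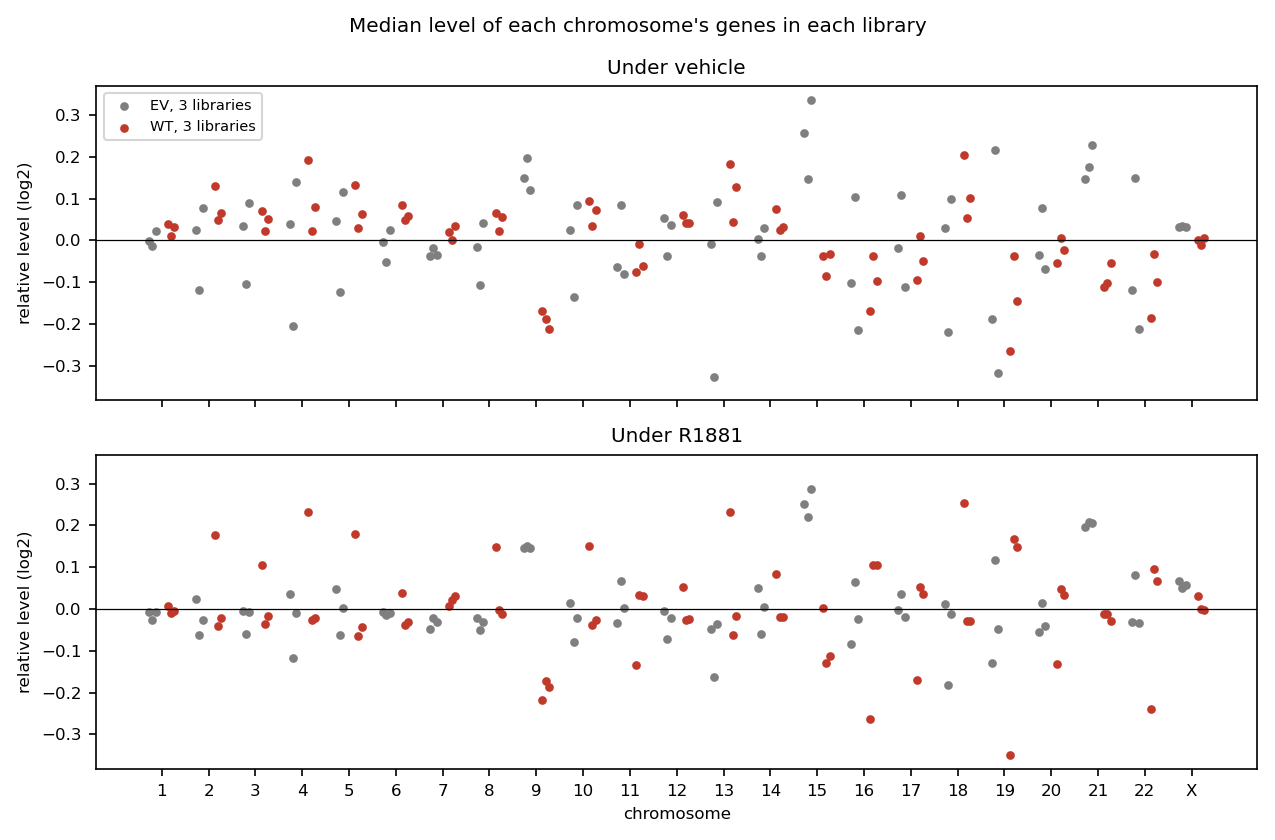
Median over each chromosome's genes of the log2 level relative to the mean of 30 libraries, less the median of all genes, for each EV (grey) and WT (red) library under vehicle (top) and R1881 (bottom). On chromosomes 9, 15 and 21 all WT libraries lie below all EV libraries under both treatments.

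Called genes on these chromosomes include PKM and ALDH1A3 (chromosome 15), TMPRSS2, ADAMTS1, NCAM2 and LSS (chromosome 21), and CTSL and RRAGA (chromosome 9). When all genes of the 3 chromosomes were left out, an analysis added after the medians had been seen, 1003 genes were called (350 higher, 653 lower), and 6 of the 9 androgen-induced genes remained, the other 3 being on these chromosomes. DNA copy number was not measured here, and its part in these differences was not tested. On chromosome 13 the bins at 70 to 80 Mb and 90 to 100 Mb had medians of 0.64 (12 genes) and 0.59 (17 genes). The second of them holds MBNL2. SLITRK5 and SLITRK6 lie between them, in a stretch with too few genes for a bin. Raised bins were not confined to chromosome 13: that at 60 to 70 Mb on chromosome 18 had a median of 0.51 (12 genes).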

How the data were processed

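RNA-seq libraries of LNCaP cells, 6 of 30 in the series, were compared. For 58735 genes the authors deposited raw read counts of each library and, beside them, FPKM (reads scaled by gene length and depth), per the file headers. The submitters' processing notes name HISAT2 2.0.5, featureCounts 1.5.0-p3 and hg38, in no order. Whether strand was used in counting, and how reads matching several genes were treated, is not given in the sources used here.

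The counts as deposited were tested in R 4.3.3 with edgeR 4.0.16 (TMM, filterByExpr, glmQLFit and glmQLFTest, two-sided). All 30 libraries entered 1 fit with 1 mean per group, and 18296 genes passed the filter on low counts. Genes were called at a Benjamini-Hochberg adjusted p of 0.05. Standard errors follow from the F statistic. The deposited FPKM entered only as an alternative, as log2(FPKM + 1) in limma 3.58.1. DESeq2 1.42.0 was another. Scripts were tested on simulated data. An exact permutation test of 3 against 3 could not go below p = 0.1. A gene without counts in a group was given a lower bound, its lowest library elsewhere against 3 counts for the whole group. With 1 to 3 counts the ratio has an exact 95% interval.

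The comparison, the gene lists and the motifs were chosen with earlier results of these data known. Lists are described by counts and medians with no test. Named genes were the 15 highest and 15 lowest called protein-coding fold changes with at least 5 CPM and no overlap, 4 noncoding genes each way, the 10 largest differences in mean CPM, up to 4 called members of each list, 6 preset genes, and up to 4 of these in each further test. Names outside this rule were chosen after their values were seen. They are members that complete a list's count, genes apart from all other lines, and overlapping or neighbouring genes. Some genes that the rule names are not reported here.

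Lists not described as such above had 1 or 2 calls each: aminoacyl-tRNA synthetases 1 lower of 23 (AIMP2), nucleotide synthesis 1 higher of 30 (PFAS), heat shock 1 lower of 22 (HSPB8), insulin signalling and FOXO targets 1 lower of 29 (TRIB1), p53 targets 2 lower of 24 (PLK2 and GDF15), nuclear genes of oxidative phosphorylation 2 lower of 81 (COX7B2 and NDUFA4L2) and UGT2B enzymes 2 higher of 7 (UGT2B15 and UGT2B17). The shares called were 4.35%, 3.33%, 4.5%, 3.45%, 8.33%, 2.47% and 28.6% in that order, beside 6.71% of all genes. The median log2 fold change of the 7 UGT2B enzymes was 1.55. When 1 library was left out, PFAS and HSPB8 lost the call in all 6 analyses and AIMP2 in 5, TRIB1 without WT replicate 3, NDUFA4L2 without EV replicate 1 or 2 or WT replicate 1 or 3, and GDF15 without EV replicate 2 or any 1 WT replicate.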

Additional observations from a re-analysis of the deposited data

Results flagged for a closer look

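In 8 genes the difference between WT and EV was of another size under R1881 than under vehicle, by the test of that difference (edgeR, Benjamini-Hochberg adjusted p over 18296 genes). The values of 7 of them are given. The values below are log2 differences, WT minus EV under R1881 less WT minus EV under vehicle, and means ± SD of 3 libraries.

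CRISPLD2, a secreted protein that glucocorticoids also induce, had a difference of -2.20 ± 0.33 (adjusted p = 0.00789). Under vehicle it was at 4.09 ± 0.40 CPM in EV and 15.3 ± 1.55 in WT, and under R1881 at 24.8 ± 8.24 and 20.2 ± 2.48. SOCS2, a suppressor of cytokine signalling, had -1.51 ± 0.26 (adjusted p = 0.0172), with 8.49 ± 0.53 and 19.9 ± 1.48 CPM under vehicle and 63.1 ± 8.19 and 52.0 ± 10.8 CPM under R1881. In both genes WT was higher than EV under vehicle and no difference passed under R1881.

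KCNN2 had 1.43 ± 0.24 (adjusted p = 0.0142), with 173 ± 26.6 CPM in EV and 30.3 ± 6.59 in WT under vehicle against 458 ± 43.6 and 216 ± 19.8 under R1881. It was lower in WT under vehicle by more than under R1881.

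ACKR3, a chemokine receptor, had 2.04 ± 0.35 (adjusted p = 0.0142), with 143 ± 19.0 and 233 ± 21.4 CPM under vehicle against 12.1 ± 2.48 and 80.7 ± 4.32 CPM under R1881. IGFBP3, a binding protein of insulin-like growth factors, had 2.51 ± 0.43 (adjusted p = 0.0142), with 5.96 ± 1.37 and 3.74 ± 0.30 CPM against 2.46 ± 0.75 and 8.81 ± 2.06. MEIS1, a homeobox factor, had 1.82 ± 0.35 (adjusted p = 0.0482), with 7.47 ± 1.95 and 5.57 ± 1.64 CPM against 7.81 ± 1.26 and 20.5 ± 6.03. BCL11B, a zinc-finger transcription factor, had 2.42 ± 0.47 (adjusted p = 0.0482), with 4.26 ± 1.70 and 3.02 ± 1.01 CPM against 1.10 ± 0.36 and 4.19 ± 0.55. In these 4 genes no difference passed under vehicle, and WT was higher than EV under R1881.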

How the results depend on the processing

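The count of 1228 called genes lay between 829 and 1051 when 1 library was left out (fewest without WT replicate 1) and between 877 and 1636 with other scaling, no filter on low counts, DESeq2, limma on FPKM, the 6 libraries alone, without mitochondrial genes and MTOR, without chromosomes 9, 15 and 21 (added after seeing the data), or with a minimum log2 fold change of 1. Of 124 called genes named by the rule or added in the text 95 kept their call in each alternative run for them, 29 lost it in at least 1 analysis that left out a library, 6 of these in all 6 such analyses (BNIP3L, HSPB8, KRT14, PFAS, RRAGA and SOX4), and none reversed.

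The libraries of WT and EV share replicate numbers. Deviations of same-numbered libraries correlated at 0.44, 0.54 and 0.03 over 11077 genes. Not every library correlated best with its own number: EV replicate 3 and WT replicate 1 correlated at 0.55. The labels do not say whether a shared number marks a batch, and these values do not settle it. The main analysis used no replicate block. With a replicate block 2058 genes were called (829 higher, 1229 lower), and 22 for the difference between treatments, 441 against NES, 432 against NLS and 291 against NLSKD.

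The difference between treatments called 8 genes. It called 24 with no filter, 26 with DESeq2 and 1 to 8 when a library was left out: 1 without WT vehicle replicate 3 or EV R1881 replicate 1, 2 without EV vehicle replicate 3, WT vehicle replicate 2 or WT R1881 replicate 3. Against NES (219 genes) it was 376 with no filter, 398 with DESeq2 and 119 to 260 without 1 library, against NLS (88) 566, 273 and 33 to 84, and against NLSKD (157) 256, 286 and 98 to 127. The cause was not tested. KLK3, not called, lay between -0.22 and 0.51 when a library was left out, with a negative value without EV replicate 3 (-0.22) and without WT replicate 2 (-0.09). Values not called that also changed sign lay between -0.14 and 0.013 for RPTOR (above 0 without EV replicate 1 or WT replicate 3), between -0.15 and 0.27 for RICTOR (below 0 without EV replicate 2 or WT replicate 1) and between -0.58 and 0.0043 for KRT8 (above 0 without EV replicate 2).

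Depth limits the genes with few counts: a gene with no count in a group has a limit of 3 counts over its 3 libraries.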
